A study of Mus musculus with 24 samples.

Results

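The B lineage genes described here are the 9 genes Pou2af1, Ms4a1, Mzb1, Jchain, Fcmr, Bank1, Cd79a, Cd79b and Blnk, out of 12647 named genes tested on the arrays. They were chosen from an earlier reading of these same arrays, in which most of them had a lower signal in cells without Lyn, and each is represented by the probes whose accession maps to its symbol. All 9 had a probe and passed the filter on dim probes. The values are microarray signals from dendritic cells grown from C57BL/6 mouse bone marrow with 100 ng/ml of human Flt3 ligand for 9 days. Flt3 ligand drives progenitors to both the plasmacytoid and the conventional kinds of dendritic cell. The genotypes were Lyn/Irf5-DKO (lacking both genes, written DKO), Lyn-KO, Irf5-KO and WT. Cells of each genotype were exposed to CpG-B, the oligonucleotide ODN 1668 at 150 nM for 6 h, or left unstimulated, which made 8 groups of 3 arrays, the series' biological triplicates. The design of the knockout alleles and the sex and age of the mice were not given in the sources used here. A total RNA sample of a mixed culture is a bulk measurement, so fewer cells of a type and less RNA per cell cannot be told apart.

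B lymphocytes carry the B cell receptor, an antibody on the membrane that signals through the paired chains Cd79a and Cd79b. Lyn, a Src-family tyrosine kinase, phosphorylates those chains and also the inhibitory receptors beside them, and the adaptors Blnk and Bank1 carry the signal on. Several of these genes are not private to B cells: plasmacytoid dendritic cells also transcribe Jchain, Mzb1, Cd79b and Blnk. CpG-B is sensed by Toll-like receptor 9, and Irf5 is a transcription factor activated downstream of that receptor.

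Levels are log2 signals minus the 75th percentile of the array, so that 0 is the signal that 75% of the probes do not exceed, and a difference of 1 is a 2-fold difference. Per array, 41.0% to 53.8% of spots were detected above background, arrays of a group correlated at 0.9909 to 0.9959 across features, and every group had 1 array on each of 3 slides. The Lyn probe was lower where Lyn-KO was the label (-0.67 ± 0.09, against 1.15 ± 0.21 in WT, SD, n = 3, unstimulated). The Irf5 probe stood at 4.61 ± 0.05 in unstimulated arrays labelled Irf5-KO, against 4.90 ± 0.06 in WT, and with CpG-B at 4.97 ± 0.24, against 4.34 ± 0.11 in WT. The position of this probe relative to the deletion was not stated in the material at hand, so it does not check the label, and Irf5-KO and DKO mean the arrays labelled so. The label of dendritic cells was set against their markers: all 12 plasmacytoid markers were well above background on every array of all 8 groups, as were the 6 tested markers of type 1 conventional cells and the 7 of type 2 cells and monocytes in every unstimulated group. Features were called at a limma adjusted p of 0.05 over all 20208 features. A p-value here rests on the scatter of the 3 cultures within a group, pooled over all 8 groups. The limma fit also draws that spread toward the spread of all features, and does not pair arrays of the same replicate.

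Without stimulation, 8 of the 9 genes were lower on every Lyn-deficient array than on every array of the matching genotype with Lyn, both in Lyn-KO against WT and in DKO against Irf5-KO. Over all features, 9.68% and 9.12% were separated in this way in these comparisons. Since this difference chose the genes, it is described here with no test. The median difference of the 9 genes was -3.46 in Lyn-KO against WT, and -2.90, -3.21 and -3.87 within slides 1, 2 and 3. In DKO against Irf5-KO it was -3.84, and -3.23, -4.25 and -3.91 within the slides. The median of all features was 0.018 and 0.025. The points of every slide lie on the same side of 0 for those 8 genes in the plot of Lyn loss by slide.

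**Figure D1:**
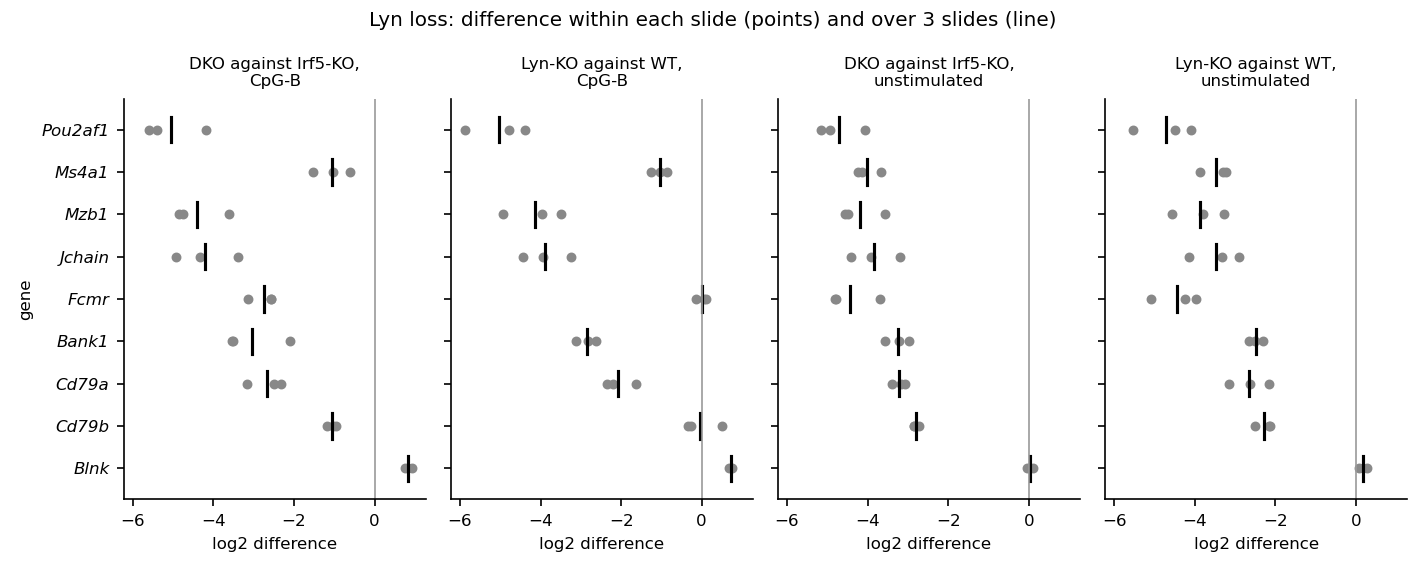
Difference in log2 signal between groups without and with Lyn for each of the 9 genes (rows), in 4 comparisons (panels); grey points are the differences within each of the 3 slides and the black line is the difference of the group means. In the unstimulated panels 8 genes lie between -2.27 and -4.72 and Blnk lies at 0.03 and 0.19, while with CpG-B the Fcmr and Cd79b lines lie at 0.01 and -0.03 in Lyn-KO against WT and at -2.75 and -1.05 in DKO against Irf5-KO.

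Pou2af1, the coactivator that B cells use with octamer-binding transcription factors, differed most. In unstimulated Lyn-KO arrays it stood at -1.77, -2.0 and -2.48, against 2.31, 2.49 and 3.04 in WT, a difference of -4.70 ± 0.37 (SE of the limma fit). In unstimulated DKO arrays it stood at -0.69, -1.49 and -2.08, against 3.38, 3.45 and 3.07 in Irf5-KO. The Lyn-deficient arrays were all below 0 and all others above 2, with no overlap, and the highest of the DKO arrays was replicate 1.

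Mzb1 and Jchain serve antibody assembly and secretion. Mzb1, a cofactor of the endoplasmic reticulum that helps antibody folding, stood at 0.28, 0.06 and -0.15 in unstimulated Lyn-KO arrays, against 3.55, 3.86 and 4.41 in WT. Jchain, which joins secreted IgM and IgA into polymers, stood at 1.20, 0.97 and 0.84 in unstimulated Lyn-KO arrays, against 4.10, 4.29 and 4.99 in WT. In both genes the gap between the genotypes was several times the spread of either group. The difference in DKO against Irf5-KO was -4.20 ± 0.33 for Mzb1 and -3.84 ± 0.31 for Jchain, and replicate 1 was again the highest unstimulated DKO array, at 1.18 and 1.65.

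Among the surface proteins, Fcmr, a receptor for the Fc part of IgM, stood at -0.86, -1.05 and -1.5 in unstimulated Lyn-KO arrays, against 3.11, 3.18 and 3.59 in WT. Ms4a1, which encodes CD20, stood at 0.37, 0.51 and 0.32 in unstimulated Lyn-KO arrays, against 3.67, 3.72 and 4.19 in WT. Both genes were far below WT in each Lyn-KO array, by -4.43 ± 0.26 for Fcmr and -3.46 ± 0.19 for Ms4a1. The same genes differed by -4.43 ± 0.26 and -4.02 ± 0.19 in DKO against Irf5-KO.

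The 2 signalling chains of the B cell receptor were not equally near the detection limit. Cd79b stood at 2.82, 2.79 and 2.89 in unstimulated Lyn-KO arrays, against 4.96, 4.95 and 5.40 in WT, and was well above background on all 24 arrays. Cd79a stood at -2.97, -3.19 and -3.38 in unstimulated Lyn-KO arrays, where 1 of 3 arrays was well above background, against -0.82, -0.56 and -0.24 in WT. In unstimulated DKO no array was well above background for Cd79a (mean -3.03, against 0.18 in Irf5-KO), so the gene was at least 9.01-fold lower there. For that bound, each array that did not measure the gene took its own signal or the dimmest detected signal of the array, whichever was higher.

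Bank1, a scaffold of B cell receptor signalling, stood at -2.54, -2.37 and -2.03 in unstimulated Lyn-KO arrays, against -0.23, 0.15 and 0.62 in WT. Its second probe gave -3.41, -3.29 and -3.20 in Lyn-KO, against -0.85, -0.69 and -0.29 in WT, so both probes ran the same way. Blnk, the adaptor that links the kinase Syk to phospholipase C, was the exception. It stood at 6.22, 6.21 and 6.16 in unstimulated Lyn-KO arrays, against 6.03, 5.92 and 6.08 in WT, and at 6.28, 6.08 and 6.19 in DKO, against 6.27, 6.12 and 6.08 in Irf5-KO. Its difference was 0.19 ± 0.06 in Lyn-KO against WT and 0.03 ± 0.06 in DKO against Irf5-KO.

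**Figure D2:**
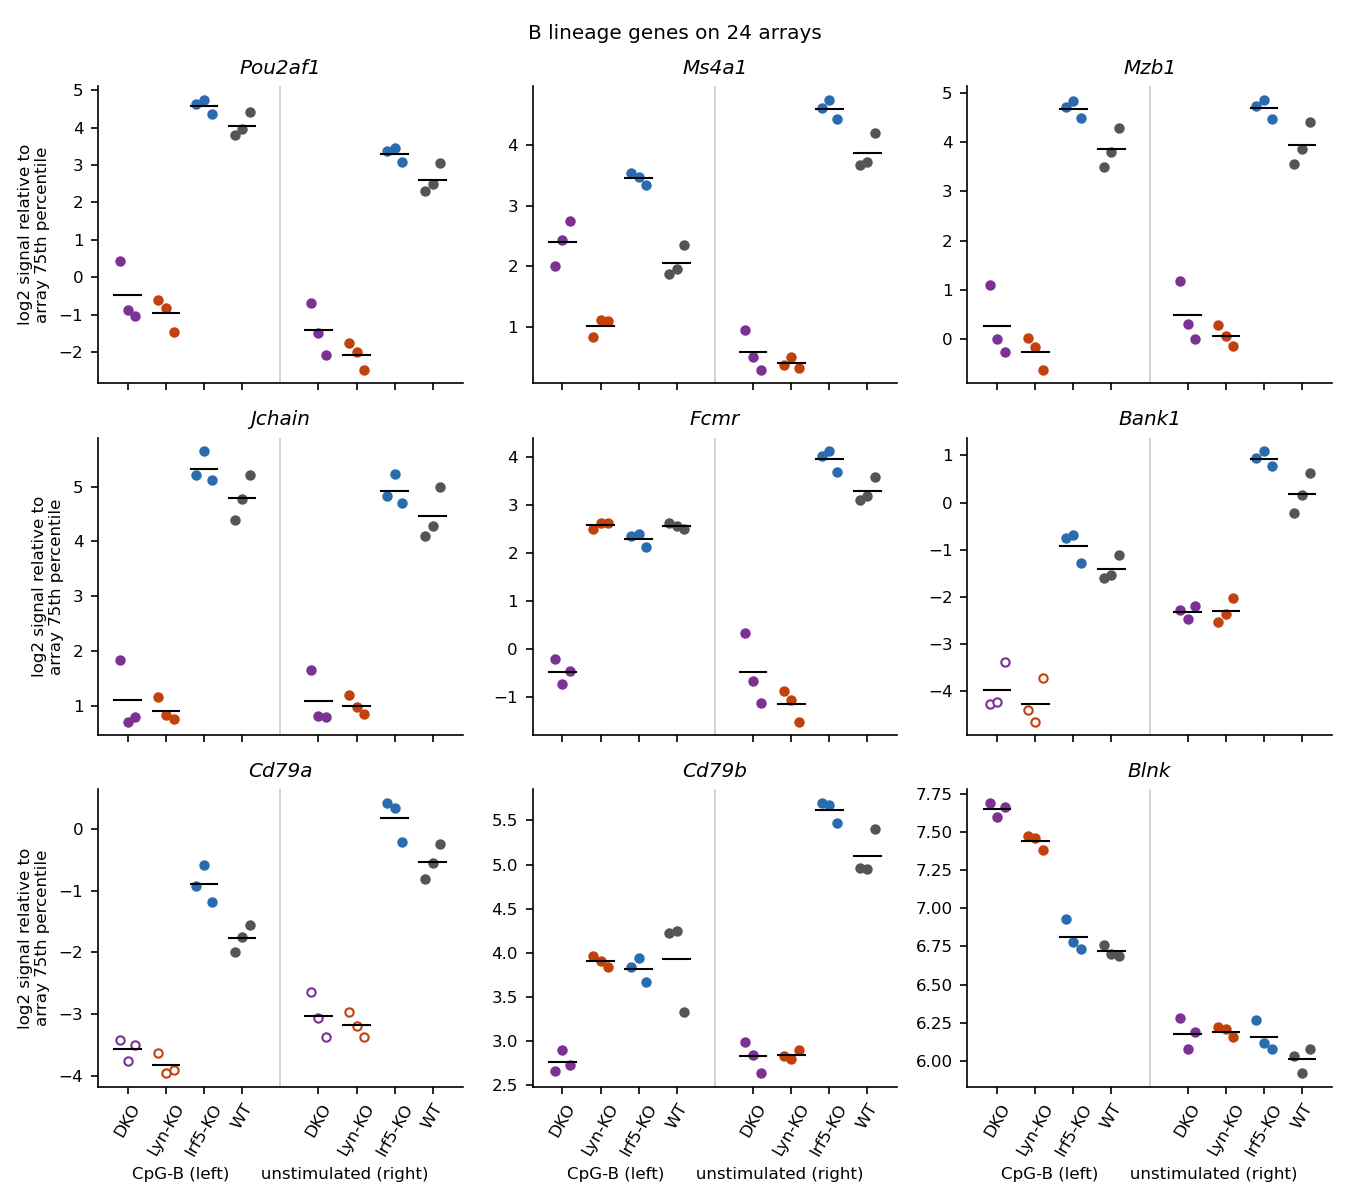
Log2 signal relative to the array's 75th percentile for the 9 genes (panels, each with its own vertical scale) on 24 arrays, with CpG-B groups left and unstimulated groups right of the grey line; points are arrays in the order of replicates 1 to 3, horizontal bars are group means and open points mark groups in which not all 3 arrays were well above background. Fcmr in Lyn-KO with CpG-B (2.50 to 2.63) overlaps with WT with CpG-B (2.51 to 2.63), while unstimulated Lyn-KO arrays lie between -1.5 and -0.86.

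With CpG-B, the 9 genes split. In Lyn-KO against WT, 6 of the 9 were lower on every Lyn-KO array, where 17.5% of all features were, and the median difference was -2.07, within slides -1.64, -2.21 and -2.36. In DKO against Irf5-KO, 8 of the 9 were lower on every DKO array, where 18.2% of all features were, and the median difference was -2.75, within slides -2.56, -3.17 and -2.32. These comparisons are again a description, since Lyn loss chose the genes. With normexp background correction and quantile normalisation together, the medians were smaller, at -0.94 and -1.53, and over the 7 genes whose probes were detected on all arrays the first was -1.04.

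The genes that stayed far apart were the coactivator and the antibody assembly genes. Pou2af1 stood at -0.60, -0.83 and -1.47 in Lyn-KO with CpG-B, against 3.79, 3.96 and 4.41 in WT, a difference of -5.02 ± 0.37. Mzb1 differed by -4.13 ± 0.33 and Jchain by -3.88 ± 0.31 in the same comparison. Their differences with CpG-B in DKO against Irf5-KO were -5.06 ± 0.37 for Pou2af1, -4.41 ± 0.33 for Mzb1 and -4.22 ± 0.31 for Jchain. Bank1 was below background on all Lyn-KO arrays with CpG-B, and at least 4.20-fold lower there (mean -4.27, against -1.42 in WT). Cd79a was likewise at least 3.30-fold lower in Lyn-KO (mean -3.83, against -1.77 in WT) and at least 4.55-fold lower in DKO (mean -3.56, against -0.90 in Irf5-KO).

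Fcmr and Cd79b did not stay apart in Lyn-KO cells. With CpG-B, Fcmr stood at 2.50, 2.63 and 2.62 in Lyn-KO arrays, against 2.63, 2.57 and 2.51 in WT, and the groups overlapped. Cd79b stood at 3.96, 3.90 and 3.84 in Lyn-KO arrays with CpG-B, against 4.22, 4.25 and 3.32 in WT, also with overlap, and WT replicate 3 was the low value. In DKO both genes were lower than in Irf5-KO. Fcmr stood at -0.20, -0.73 and -0.44, against 2.36, 2.40 and 2.13 in Irf5-KO. Cd79b stood at 2.66, 2.89 and 2.72 in DKO with CpG-B, against 3.84, 3.94 and 3.67 in Irf5-KO. Ms4a1 lay in between, at -1.04 ± 0.19 in Lyn-KO against WT and -1.05 ± 0.19 in DKO against Irf5-KO. Blnk ran the other way with CpG-B, at 0.72 ± 0.06 and 0.84 ± 0.06, higher on every Lyn-deficient array.

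The response to CpG-B within each genotype was tested, with the reservation that the unstimulated arrays are among those whose Lyn-dependent difference chose the genes. In DKO, 3 of the 9 genes rose and 2 fell (Bank1 and Cd79a, whose leading probes were well above background on 0 of 3 DKO arrays with CpG-B), a count of 5 that became 3 with no filter on dim probes, in a fit of the DKO arrays alone, over the probes detected on all arrays, or without unstimulated replicate 2. In Lyn-KO, 5 rose and 2 fell, while in Irf5-KO and in WT 2 rose and 5 fell. Over all features the share that rose was 34.3% in DKO, 32.5% in Lyn-KO, 31.5% in Irf5-KO and 31.6% in WT, and the share that fell was 36.1%, 36.3%, 35.3% and 36.8% in DKO, Lyn-KO, Irf5-KO and WT. The counts of the 9 genes are to be read against these large shares. The median response of the 9 genes was 0.02 in DKO, 0.61 in Lyn-KO, -1.07 in Irf5-KO and -0.73 in WT, while the median of all features lay between -0.025 and 0.011.

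**Figure D3:**
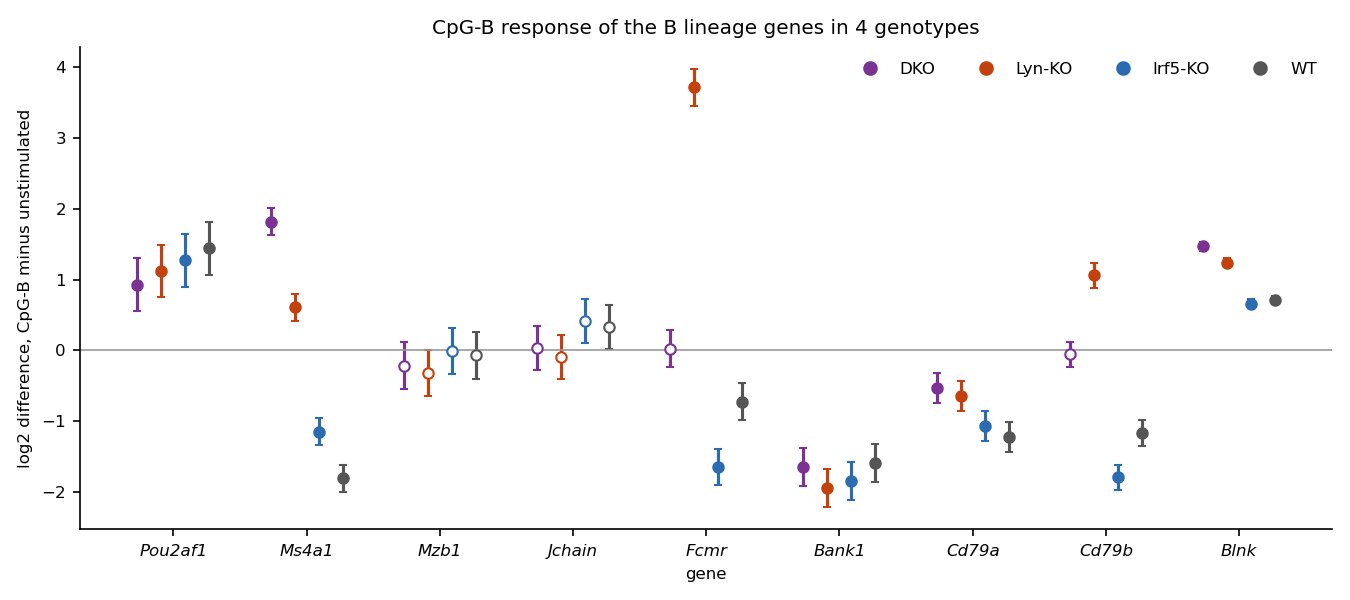
CpG-B minus unstimulated log2 difference of each of the 9 genes in DKO, Lyn-KO, Irf5-KO and WT (colours, left to right within a gene); bars are limma standard errors (3 arrays in each group), and filled points passed an adjusted p of 0.05. Fcmr lies at 3.72 in Lyn-KO and at 0.02 in DKO, Ms4a1 lies above 0 in both Lyn-deficient genotypes and below 0 in both others, and Mzb1 and Jchain have no filled point. Bank1 and Cd79a points in DKO and Lyn-KO rest on CpG-B arrays of which 0 of 3 were well above background.

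Fcmr had the largest response of the set. It rose in Lyn-KO cells by 3.72 ± 0.26 (13.1-fold, adjusted p = 1.87e-10), and by 3.35, 3.68 and 4.12 within the slides. In WT cells it fell by 0.73 ± 0.26 (adjusted p = 0.0184), a call that was lost without unstimulated WT replicate 3 (-0.58, adjusted p = 0.086). In Irf5-KO cells it fell by 1.65 ± 0.26 (adjusted p = 1.47e-05). In DKO arrays it stood at -0.20, -0.73 and -0.44 with CpG-B, against 0.34, -0.66 and -1.12 unstimulated, with overlap and no call (0.02 ± 0.26, adjusted p = 0.941).

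Ms4a1 fell in both genotypes with Lyn and rose in both without it. With CpG-B it stood at 1.87, 1.95 and 2.35 in WT arrays, against 3.67, 3.72 and 4.19 unstimulated, a difference of -1.81 ± 0.19 (adjusted p = 6.86e-08), and the response in Irf5-KO was -1.15 ± 0.19 (adjusted p = 2.49e-05). It stood at 2.01, 2.43 and 2.75 in DKO with CpG-B, against 0.95, 0.50 and 0.29 unstimulated, a rise of 1.82 ± 0.19 (adjusted p = 6.03e-08). In Lyn-KO the rise was 0.61 ± 0.19 (adjusted p = 0.00755). Cd79b also fell in both genotypes with Lyn (-1.80 ± 0.18 in Irf5-KO and -1.17 ± 0.18 in WT), and rose in Lyn-KO by 1.06 ± 0.18 (adjusted p = 3.53e-05). In DKO its response was -0.06 ± 0.18 (adjusted p = 0.791). Whether these responses differ between Lyn-deficient cells and cells with Lyn was not tested, because the choice of the genes bears on it.

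Pou2af1, Blnk, Bank1 and Cd79a were called in the same direction in all 4 genotypes. The Cd79a calls in DKO and Lyn-KO rest on groups with at most 1 of 3 arrays well above background. Pou2af1 rose in each genotype, by 0.93 ± 0.37 in DKO, 1.12 ± 0.37 in Lyn-KO, 1.27 ± 0.37 in Irf5-KO and 1.44 ± 0.37 in WT. The call in DKO was lost, with a value of 0.46 and an adjusted p of 0.242, without CpG-B DKO replicate 1, and the value was 0.60 (adjusted p = 0.182) without unstimulated DKO replicate 3. Without unstimulated DKO replicate 2 it was 0.89 (adjusted p = 0.0715). The call in DKO was also lost in a fit of the DKO arrays alone (adjusted p = 0.15) and with no filter on dim probes (adjusted p = 0.0624). In all it was lost in 5 of 33 alternatives, and DKO arrays with CpG-B overlapped with unstimulated ones. The call in Lyn-KO was lost without CpG-B replicate 1 (0.93, adjusted p = 0.0546) or unstimulated replicate 3 (0.92, adjusted p = 0.0573). Blnk rose in each genotype, by 1.47 ± 0.06 in DKO, 1.24 ± 0.06 in Lyn-KO, 0.66 ± 0.06 in Irf5-KO and 0.71 ± 0.06 in WT, with no overlap between CpG-B and unstimulated arrays.

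Bank1 fell in each genotype. Its leading probe was well above background on 0 of 3 arrays with CpG-B in both DKO and Lyn-KO, so only bounds hold there: it was at least 1.70-fold lower in DKO (mean -3.97, against -2.32 unstimulated, adjusted p = 1.91e-05) and at least 2.26-fold lower in Lyn-KO (mean -4.27, against -2.31, adjusted p = 2.63e-06). The differences were -1.85 ± 0.27 in Irf5-KO and -1.60 ± 0.27 in WT. With its second probe the call in DKO was lost (-0.93, adjusted p = 0.101), where 1 of 3 arrays with CpG-B was well above background by that probe. Cd79a fell by 1.07 ± 0.21 in Irf5-KO and fell by 1.23 ± 0.21 in WT. In Lyn-KO it was called lower with CpG-B (mean -3.83, against -3.18 unstimulated, adjusted p = 0.00986). There 0 of 3 arrays with CpG-B and 1 of 3 unstimulated arrays were well above background, so no fold is given. The call in Lyn-KO was lost with normexp background correction and quantile normalisation together (-0.16, adjusted p = 0.275). In DKO Cd79a was not well above background in either condition, so no fold is given there either. The call of Cd79a in DKO was lost without 1 of 3 arrays: CpG-B replicate 2 (adjusted p = 0.113), unstimulated replicate 1 (0.175) or unstimulated replicate 2 (0.0506). Mzb1 and Jchain were not called in any genotype: their responses ran from -0.32 to 0.41, in a fit that did not pair arrays of the same replicate. At 3.50 to 4.30 with CpG-B and 3.55 to 4.41 unstimulated in WT the Mzb1 groups overlapped almost fully. Within slides the Jchain response was 0.38, 0.41 and 0.43 in Irf5-KO and 0.29, 0.48 and 0.22 in WT. It was -0.05, -0.15 and -0.08 in Lyn-KO and 0.18, -0.12 and 0.01 in DKO. These small within-slide differences were not tested with pairing.

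Loss of Irf5 did not choose the genes. Without stimulation, none of the 9 was called in Irf5-KO against WT, where 0.322% of features were called higher and 0.391% lower, or in DKO against Lyn-KO, where 0.094% were called higher and 0.0792% lower. On the arrays themselves, 8 of the 9 were higher on every Irf5-KO array than on every WT array, and 0 were in DKO against Lyn-KO. The share of all features separated so was not counted for these comparisons, so the 8 and the 0 have no background to be read against. In Irf5-KO against WT the median was 0.69, but it was 0.94, 0.94 and 0.06 within the slides. WT replicate 3 was the highest unstimulated WT array for 9 of the 9 genes, and Irf5-KO replicate 3 the lowest unstimulated Irf5-KO array for 9 of the 9. Without WT replicate 3, Ms4a1 was called higher in unstimulated Irf5-KO (0.90, adjusted p = 0.0373, against 0.74 and 0.0929 with it), and without WT replicate 3 with CpG-B, Cd79b was (0.51, adjusted p = 0.0468). With normexp background correction and quantile normalisation together, Bank1 (0.81, adjusted p = 0.0274) and Cd79a (0.55, adjusted p = 0.0391) were called higher.

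With CpG-B, Ms4a1 was higher without Irf5 in both backgrounds. It stood at 3.54, 3.47 and 3.34 in Irf5-KO arrays, against 1.87, 1.95 and 2.35 in WT, a rise of 1.39 ± 0.19 (adjusted p = 1.79e-05). It stood at 2.01, 2.43 and 2.75 in DKO arrays, against 0.84, 1.11 and 1.09 in Lyn-KO, a rise of 1.38 ± 0.19 (adjusted p = 1.3e-05). Cd79a was also called higher in Irf5-KO against WT (0.87 ± 0.21, adjusted p = 0.00447), and these were the 2 calls among the 9 genes, where 13.9% of features were called higher and 11.4% lower. Within slides the Cd79a difference was 1.07, 1.16 and 0.37. In DKO against Lyn-KO, 2 of the 9 were higher and 2 lower, where 17.2% of features were called higher and 14% lower. The second higher gene was Blnk, by 0.21 ± 0.06 (adjusted p = 0.0165), a call lost in 6 of 33 alternatives. It was 0.06 (adjusted p = 0.664) with normexp background correction and quantile normalisation together and 0.18 (adjusted p = 0.0857) with quantile normalisation alone. The adjusted p was 0.0559 with no filter on dim probes and 0.0515 in a fit of the DKO and Lyn-KO arrays with CpG-B alone. The call was also lost without DKO replicate 1 (0.19, adjusted p = 0.0614) or Lyn-KO replicate 3 (0.19, adjusted p = 0.0675).

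The 2 lower genes in DKO against Lyn-KO with CpG-B were Fcmr and Cd79b. Fcmr fell by 3.04 ± 0.26 (8.23-fold, adjusted p = 3.65e-08), to between -0.73 and -0.20 in DKO arrays, against 2.50 to 2.63 in Lyn-KO. Cd79b fell by 1.14 ± 0.18 (adjusted p = 7.04e-05), to between 2.66 and 2.89 in DKO arrays, against 3.84 to 3.96 in Lyn-KO. Neither group pair overlapped. In Irf5-KO against WT with CpG-B the same genes gave -0.27 ± 0.26 (adjusted p = 0.513) for Fcmr and -0.12 ± 0.18 (adjusted p = 0.718) for Cd79b, Cd79b moving to -0.42 (adjusted p = 0.0225) without WT replicate 3. The effects of Irf5 loss without and with Lyn stand side by side with no test of their difference, because it equals the difference between the Lyn-loss comparisons that chose the genes.

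Between DKO and Lyn-KO the CpG-B response differed by -3.69 ± 0.37 for Fcmr (adjusted p = 7.92e-07), -1.12 ± 0.26 for Cd79b (adjusted p = 0.00391) and 1.20 ± 0.27 for Ms4a1 (adjusted p = 0.00305). Over all features 10.2% had a higher and 8.35% a lower response in DKO. The within-slide values were -3.90, -3.75 and -3.43 for Fcmr, -1.45, -1.05 and -0.86 for Cd79b and 0.60, 1.34 and 1.68 for Ms4a1. Between Irf5-KO and WT no member passed, where 7% of features had a higher and 5.29% a lower response. The values there were -0.92 ± 0.37 for Fcmr (adjusted p = 0.12), -0.63 ± 0.26 for Cd79b (adjusted p = 0.132) and 0.66 ± 0.27 for Ms4a1 (adjusted p = 0.13). The Fcmr value was called in 3 alternatives: with normexp background correction and quantile normalisation together (adjusted p = 0.039), in a fit of the Irf5-KO and WT arrays alone (0.0166) and without unstimulated DKO replicate 1 (0.0197), at -0.92 in each. Without WT replicate 3 with CpG-B the Cd79b value became -0.93 (adjusted p = 0.00115).

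The promoters of 6 of the 9 genes, 250 bases before to 50 after the start, were found in the RefSeq table of the build GRCm38.p6, and 3 are printed because their genes behave most differently here. Fcmr rose with CpG-B in Lyn-KO but was not called in DKO. Loss of Irf5 was called for Fcmr in DKO against Lyn-KO with CpG-B and in the difference between their CpG-B responses. No other comparison of Irf5 loss called Fcmr in the main fit. Blnk was not lower without Lyn, and Cd79a stands for the genes that were low in every Lyn-deficient group. Capitals mark a match to a searched motif.
Fcmr, chr1:130865527-130865826, plus strand: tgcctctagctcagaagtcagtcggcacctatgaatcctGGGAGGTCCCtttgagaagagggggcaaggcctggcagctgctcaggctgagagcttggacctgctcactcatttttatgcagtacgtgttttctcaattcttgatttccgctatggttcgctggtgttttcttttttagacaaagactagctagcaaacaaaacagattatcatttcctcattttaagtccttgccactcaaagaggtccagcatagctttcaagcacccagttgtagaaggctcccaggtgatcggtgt
Blnk, chr19:40994172-40994471, minus strand: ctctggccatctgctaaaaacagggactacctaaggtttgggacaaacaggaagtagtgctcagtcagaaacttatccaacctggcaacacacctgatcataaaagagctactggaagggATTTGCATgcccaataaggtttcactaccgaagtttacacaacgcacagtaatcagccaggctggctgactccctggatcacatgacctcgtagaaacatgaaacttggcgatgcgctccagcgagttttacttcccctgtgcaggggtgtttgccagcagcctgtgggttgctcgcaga
Cd79a, chr7:24897247-24897546, plus strand: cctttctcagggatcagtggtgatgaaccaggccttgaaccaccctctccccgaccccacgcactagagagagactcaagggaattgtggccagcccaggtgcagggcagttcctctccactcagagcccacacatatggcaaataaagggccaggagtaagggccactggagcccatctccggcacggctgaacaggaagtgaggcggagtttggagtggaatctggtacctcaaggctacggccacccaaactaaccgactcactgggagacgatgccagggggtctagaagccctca
Both strands were searched for the octamer ATGCAAAT, the IRF element GAAANNGAAA, the EBF site TCCCNNGGGA and the kappa B site by its consensus. The Fcmr window held a kappa B match 211 to 202 bases before the start, read on both strands, and 8.46% of all 32851 promoter windows hold one. The Blnk window held the octamer on the opposite strand, 130 to 123 bases before the start, which 1.74% of windows hold. The windows of Pou2af1, Jchain, Bank1 and Cd79a held no match, and no window of the 6 held the IRF element (3.44% of all windows) or the EBF site (0.904%). A match describes letters and is neither a bound site nor a cause.

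Each of the 9 genes had its own order of levels. For Jchain the 4 groups with Lyn, from 4.46 to 5.33, stood above the 4 without it, from 0.91 to 1.11, and within each set neighbours in the order overlapped. For Fcmr the order was unstimulated Irf5-KO (3.95), unstimulated WT (3.30), Lyn-KO with CpG-B (2.58), WT with CpG-B (2.57), Irf5-KO with CpG-B (2.30), DKO with CpG-B (-0.46), unstimulated DKO (-0.48) and unstimulated Lyn-KO (-1.13). Neighbours overlapped between the third and the fourth and among the last 3. For Ms4a1, DKO with CpG-B (2.40) overlapped with WT with CpG-B (2.06) and stood above Lyn-KO with CpG-B (1.01). For Cd79b, DKO with CpG-B (2.76) overlapped with unstimulated DKO (2.82), while Lyn-KO with CpG-B (3.90) overlapped with both Irf5-KO (3.81) and WT (3.93) with CpG-B. For Blnk the 4 CpG-B groups, from 6.72 to 7.65, stood above the 4 unstimulated ones, from 6.01 to 6.19.

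Over the 24 arrays, each gene was set against the mean of the other members. Mzb1 (r = 0.967), Jchain (0.960), Cd79a (0.941) and Pou2af1 (0.911) were closest, Ms4a1 (0.864), Cd79b (0.810), Fcmr (0.805) and Bank1 (0.798) followed, and Blnk ran the other way (-0.369). These values describe groups that share genotype and treatment and carry no test. The 9 genes lie on 8 chromosomes, with Ms4a1 and Blnk both on chromosome 19.

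Among 6343 other named genes whose group means spanned at least 1 on the log2 scale, those most like the mean of the 9 were Gimap3 (r = 0.978), Oosp1 (0.955), Fah (0.954), Vpreb3 (0.954), Il5ra (0.951), Gimap4 (0.939), Wnt10a (0.935) and Lax1 (0.933). Gimap3 and Gimap4 encode GTPases of lymphocytes, Il5ra the specific chain of the interleukin-5 receptor, and Lax1 a membrane adaptor of lymphocytes. Gimap3 averaged -3.07 in unstimulated Lyn-KO, against 0.54 in WT, and -2.34 in unstimulated DKO, against 1.38 in Irf5-KO. With CpG-B it averaged -3.12 in Lyn-KO, against -0.11 in WT, so it stayed apart as Mzb1 and Jchain did. Il5ra averaged -2.44 in unstimulated Lyn-KO, against 0.05 in WT.

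Of 50 further genes of the B lineage, grouped by role, 44 passed the filter. These lists were drawn up with earlier results of these data known. Their counts and adjusted p-values under Lyn loss are therefore a description. Most genes named from them were picked for a large called difference under Lyn loss. Ighm and Ighd were not matched to a probe by symbol, and Vpreb2, Igll1, Tnfrsf17 and Fkbp11 were too dim. In unstimulated Lyn-KO against WT, 2 of the 44 rose and 11 fell, where 1.92% of all features were called higher and 2.68% lower, and in DKO against Irf5-KO 2 rose and 16 fell, where 2.61% were called higher and 2.82% lower. Fitted on the arrays of the contrast alone, the first became 1 and 6. With CpG-B, 11 rose and 14 fell in Lyn-KO against WT, where 13.1% were called higher and 11.7% lower. In DKO against Irf5-KO with CpG-B 12 rose and 15 fell, where 18.4% were called higher and 14.7% lower. The median of the 44 was -0.16 and -0.26 unstimulated and -0.14 and -0.08 with CpG-B, beside 0.018 and 0.025 unstimulated and 0.04 and 0.063 with CpG-B over all features. For the Irf5-KO label against WT, 5 of the 44 rose and 0 fell unstimulated, where 0.322% of features were called higher and 0.391% lower. With CpG-B 17 rose and 5 fell, where 13.9% were called higher and 11.4% lower. In DKO against Lyn-KO 1 rose and 0 fell unstimulated, where 0.094% were called higher and 0.0792% lower. With CpG-B 12 rose and 7 fell there, where 17.2% were called higher and 14% lower.

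**Figure D4:**
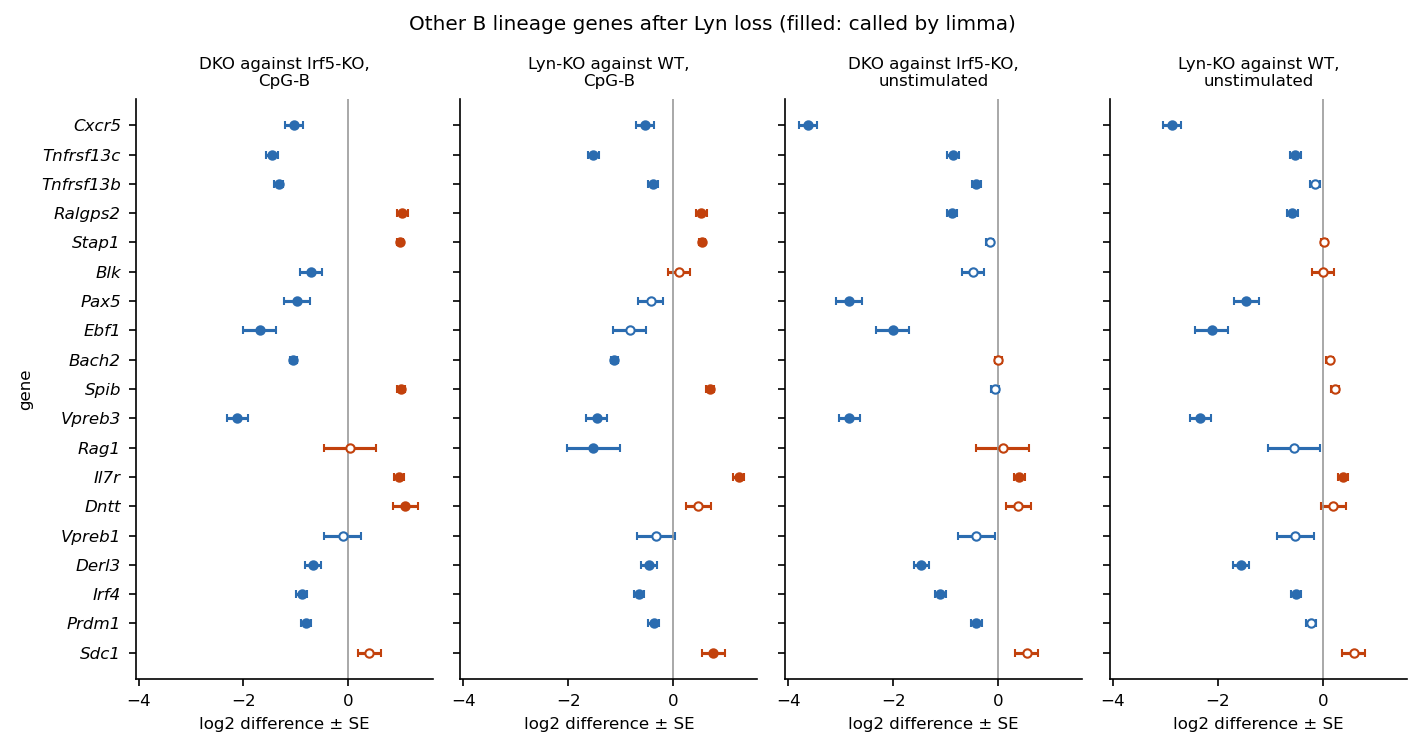
Log2 differences ± SE of the limma fit for 19 further B lineage genes in the 4 comparisons of Lyn-deficient with Lyn-carrying groups; filled points passed an adjusted p of 0.05, blue lies below 0 and orange above. The Pax5 points of the unstimulated panels rest on Lyn-deficient arrays that did not measure it. Cxcr5, Pax5, Ebf1 and Vpreb3 lie to the left in both unstimulated panels, at -1.46 to -3.63, while Il7r lies to the right in all 4 panels.

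Receptors held the largest differences of these lists, with 0 higher and 4 lower of 11 tested in unstimulated Lyn-KO against WT and 0 higher and 6 lower in DKO against Irf5-KO. Cxcr5, the receptor for the follicle chemokine, fell by 2.88 ± 0.17 in unstimulated Lyn-KO against WT (adjusted p = 4.89e-09) and fell by 3.63 ± 0.17 in DKO against Irf5-KO (adjusted p = 1.63e-10). With CpG-B the difference was -0.53 ± 0.17 in Lyn-KO against WT and -1.03 ± 0.17 in DKO against Irf5-KO. It rose with CpG-B by 3.70 ± 0.17 in DKO and 3.87 ± 0.17 in Lyn-KO, with no called difference between them (-0.17 ± 0.24, adjusted p = 0.727). Tnfrsf13c, the receptor for BAFF, fell by 0.52 ± 0.11 in unstimulated Lyn-KO and fell by 1.52 ± 0.11 with CpG-B, and Tnfrsf13b fell by 0.38 ± 0.09 with CpG-B (unstimulated -0.15 ± 0.09, adjusted p = 0.443).

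Of the 9 tested transcription factors, 3 fell and 0 rose in each unstimulated comparison. Ebf1, a factor that commits progenitors to the B lineage, fell by 2.12 ± 0.31 in unstimulated Lyn-KO and fell by 2.01 ± 0.31 in DKO against Irf5-KO. In unstimulated Lyn-KO it stood at -4.07, -2.32 and -2.63, and 2 of these 3 arrays were well above background. Pax5, which maintains B cell identity, was at least 1.99-fold lower in unstimulated DKO (mean -5.00, against -2.17 in Irf5-KO), and at least 1.90-fold lower in unstimulated Lyn-KO (mean -3.92, against -2.46 in WT, adjusted p = 0.000834). The probe was well above background on 0 of 3 arrays in both Lyn-deficient groups. With CpG-B neither passed in Lyn-KO against WT (-0.83 ± 0.31, adjusted p = 0.0619, for Ebf1 and -0.43 ± 0.24, adjusted p = 0.22, for Pax5), while both did in DKO against Irf5-KO, at -1.69 ± 0.31 and -0.98 ± 0.24. In Lyn-KO against WT with CpG-B, Bach2 fell by 1.12 ± 0.07, and Spib, a factor of plasmacytoid dendritic cells as well as B cells, rose by 0.70 ± 0.08.

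The lists of earlier and later B lineage stages were less uniform. Among the 6 tested progenitor genes, Vpreb3, a partner of the early antibody chain, fell by 2.34 ± 0.20 in unstimulated Lyn-KO and fell by 2.84 ± 0.20 in DKO. Its probe was well above background on 2 of 3 unstimulated Lyn-KO arrays. The recombination gene Rag1 gave -0.55 ± 0.50 (adjusted p = 0.674), Dntt 0.20 ± 0.24 (adjusted p = 0.781) and Vpreb1 -0.52 ± 0.36 (adjusted p = 0.546) in unstimulated Lyn-KO against WT, while Il7r rose by 0.39 ± 0.10. Among the 8 tested plasma cell genes, Derl3, a component of endoplasmic reticulum protein disposal, fell by 1.56 ± 0.15 in unstimulated Lyn-KO, and Irf4 fell by 0.51 ± 0.10. Prdm1 gave -0.22 ± 0.10 (adjusted p = 0.296) and Sdc1 0.59 ± 0.22 (adjusted p = 0.154). Among the 10 signalling genes 1 rose and 1 fell in unstimulated Lyn-KO against WT, and the one that fell was Ralgps2 (-0.58 ± 0.10). With CpG-B, in Lyn-KO against WT, Ralgps2 rose instead, by 0.54 ± 0.10, and Stap1 by 0.55 ± 0.06, while Blk was at 0.12 ± 0.21 (adjusted p = 0.728).

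Markers of other cells moved with genotype too. Of the 12 plasmacytoid markers, 2 rose and 0 fell in unstimulated Lyn-KO against WT, where 1.92% of all features were called higher and 2.68% lower. With CpG-B 8 rose and 0 fell, where 13.1% were called higher and 11.7% lower. Their summed level on the linear scale ran from 657 to 696 in unstimulated Lyn-KO, against 510 to 633 in WT, and from 1090 to 1220 in Lyn-KO with CpG-B, against 789 to 854 in WT. Of the 7 tested markers of T and natural killer cells, 1 rose and 0 fell in unstimulated Lyn-KO, with sums of 13.4 to 18.8, against 14.4 to 17.8 in WT, and 1 of the 7 was below background on all unstimulated Lyn-KO arrays. The 9 neutrophil markers summed to 48.4 to 97.6 in unstimulated DKO, against 92.1 to 118 in Irf5-KO, where 0 rose and 1 fell. In that comparison 2.61% of all features were called higher and 2.82% lower. They summed to 89.9 to 114 in unstimulated Lyn-KO, against 110 to 137 in WT, where 0 rose and 0 fell. The 5 tested basophil and mast cell markers summed to 4.28 to 4.84 in unstimulated DKO, against 1.83 to 2.01 in Irf5-KO, where 3 rose and 0 fell. In unstimulated Lyn-KO their sums lay the other way, at 1.63 to 2.69, against 2.64 to 3.82 in WT, where 0 rose and 0 fell. In DKO against Lyn-KO with CpG-B, 5 of the 5 basophil and mast cell markers rose and 0 fell. There 17.2% of all features were called higher and 14% lower. Of the 7 tested markers of type 2 cells and monocytes, 3 rose and 0 fell. Of the 12 plasmacytoid markers 2 rose and 4 fell, and of the 9 neutrophil markers 0 rose and 0 fell. The part of these shifts in the results on the 9 genes was not tested.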

How the data were processed

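Total RNA was labelled with Cy3 and read on 1-colour Agilent mouse arrays, per the labels' protocols. The deposited scanner output gives a processed intensity per spot, which Feature Extraction in version 10.7.3.1 had background-subtracted, per the file headers. Values in the series table, also deposited, are on a log2 scale. Comparison with the scanner output gave the 75th-percentile shift and centring per probe, its column medians run from -0.273 to 0.375, and differences between arrays lay within 0.00304 for 95% of values over 14393 probes.

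Spots of a probe were averaged, taken to log2 and shifted by the array's 75th percentile. Of 55681 probes, 26638 were kept because some group had all 3 arrays well above background. Accessions were matched to RefSeq symbols (GRCm38.p6), which named 26762 probes, and the probe with the highest mean represented a gene, giving 20208 features with 17 missing values. Bank1 had 2 probes and each other member 1. One limma 3.58.1 model (R 4.3.3, with data.table at 1.17.8) of 8 group means took in all 24 arrays and gave 14 contrasts, with 2-sided Benjamini-Hochberg adjusted p-values over all features of a contrast. The limma step was tested on simulated data. Tables and figures used Python 3.11.15, numpy 2.4.6, pandas 2.3.3 and matplotlib 3.10.9.

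The members and the gene lists were chosen with earlier results of these data known, so Lyn loss is described for the members without a test. The counts and adjusted p-values of the gene lists under Lyn loss are likewise a description. The text names every member, Lyn and Irf5, up to 4 genes per further list with the largest called difference under Lyn loss, Pax5, Ebf1 and Vpreb1, and the 8 genes most like the members. A few genes that this rule would name are not reported here. The number of arrays limits the precision. The alternatives were other normalisations, background corrections, filters, probes, the replicate block, smaller fits, the series table and leaving out each array.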

Additional observations from a re-analysis of the deposited data

Results flagged for a closer look

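The CpG-B response of 3 members differed between DKO and Lyn-KO by the test of the difference itself: -3.69 for Fcmr, -1.12 for Cd79b and 1.20 for Ms4a1 on the log2 scale (limma adjusted p = 7.92e-07, 0.00391 and 0.00305). The Fcmr and Cd79b differences were negative and the Ms4a1 difference positive on each of the 3 slides. Groups of 3 arrays were not examined for a single outlying array.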

How the results depend on the processing

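Of 790 member values under alternatives other than leaving out an array, 773 kept their direction and side of the threshold, 11 lost a call, 6 gained one and 0 were reversed; leaving out each of the 24 arrays, 2143 of 2160 did, with 11 lost, 6 gained and 0 reversed. No filter on dim probes, only probes detected on all arrays, and a fit of the arrays of the contrast alone each gave 3 members called for the CpG-B response in DKO. Normexp background correction and quantile normalisation together gave 2 members called in unstimulated Irf5-KO against WT, 1 in the response of Irf5-KO minus WT (as did the smaller fit, 1), and medians of -0.94 in Lyn-KO against WT and -1.53 in DKO against Irf5-KO with CpG-B. Probes detected on all arrays gave 1 call in Irf5-KO against WT with CpG-B and a median of -1.04 in Lyn-KO against WT with CpG-B, over 7 members. The smaller fit called 7 of the further B lineage genes in unstimulated Lyn-KO against WT. The cause was not tested, apart from the fewer genes and fewer arrays of those settings.

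Leaving out each array gave 3 to 5 members called for the response in DKO, 6 to 7 in Lyn-KO, 7 to 7 in Irf5-KO and 6 to 7 in WT. It gave 0 to 1 in unstimulated and 2 to 3 in CpG-B Irf5-KO against WT, 0 to 0 and 3 to 4 in DKO against Lyn-KO, 3 to 3 for the response in DKO minus Lyn-KO and 0 to 1 for Irf5-KO minus WT. The medians ran from -3.56 to -3.19 and -2.18 to -1.96 in Lyn-KO against WT without and with CpG-B, and from -4.12 to -3.68 and -2.88 to -2.62 in DKO against Irf5-KO. The further genes called ran from 10 to 14 and 19 to 26 in Lyn-KO against WT, and from 16 to 19 and 25 to 28 in DKO against Irf5-KO.

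Arrays of equal replicate number share a slide. Over 84 pairs of equal number, most of them across genotypes, the correlation of deviations ran from -0.084 to 0.293 (median 0.055, other numbers -0.03). Pairs within a genotype were not examined apart, and no fit paired them. In each genotype the replicate that was highest for the most members was the same in both conditions. Within slides the Pou2af1 response in WT was 1.47, 1.47 and 1.37 (SE 0.37 in the unpaired fit), and that of Cd79b -0.74, -0.71 and -2.08 (SE 0.18). With the replicate block, 4 instead of 3 members were called in the response of DKO minus Lyn-KO, the fourth being Blnk (0.22, adjusted p = 0.0383), and no other member call changed. Dim signal limits Bank1 and Cd79a without Lyn. Where 0 of 3 arrays of a group were well above background, a fold is given only as a bound. No fold is given for the CpG-B response of Cd79a in DKO and Lyn-KO.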
